A study of Homo sapiens with 8 samples.

Results

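DDIT4 and 8 other genes known for their response to low oxygen or scarce nutrients, TXNIP, NDRG1, VEGFA, ADM, BNIP3, PFKFB4, CA9 and SESN2, were followed through nascent RNA of 2 human colorectal cancer cell lines. All 9 were found by symbol in both count tables, which hold 18638 gene models each. The set was chosen by a readout of the same libraries, since DDIT4 had been picked out for its fall after auxin in DLD-1 and the other genes were set around it with those results known. Values of the DLD-1 comparison are therefore given as a description, without p-values for these 9 genes.

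Factory-seq was used to enrich nascent RNA. In this method nuclei are treated with DNase and lysed under native conditions, and caspases then free the RNA held at sites of transcription. DLD-1 cells carried Tet-OsTIR1 and a mAID degron on POLR2A, the gene of the largest subunit of RNA polymerase II, and were compared without and with auxin. HCT116 cells carried mAID on TOP2A, and a control group was compared with a group labelled TOP2B-/- TOP2A-mAID. A mAID-tagged protein is degraded when auxin is added to cells that make OsTIR1, and the labelled protocol used doxycycline over 24 h and 500 µM auxin over 14 h. Each of the 4 groups held 2 libraries, and nothing says that they came from separate cultures, so that p-values measure only the spread between these libraries, which may be technical. Titles of the TOP2B-/- group read as control while its treatment field and column names read as auxin, and thus genotype and auxin cannot be told apart in that comparison. The titles give all 8 libraries as asynchronous, while the protocol text also mentions G1 sorting for some samples. It is not stated whether untreated cells received doxycycline.

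In cells with enough oxygen, prolyl hydroxylases (EGLN proteins) mark the HIF alpha subunits for destruction through VHL, and in hypoxia the stabilised subunits pair with ARNT and switch on genes of glycolysis, pH control, mitophagy and vessel growth. DDIT4 (also called REDD1) restrains mTORC1 through the TSC complex when oxygen or energy is short. SESN2 holds back mTORC1 through GATOR2 when leucine is scarce. TXNIP, a glucose-responsive arrestin, binds thioredoxin and limits glucose uptake. VEGFA is the main vessel growth factor, and ADM encodes the vasodilator peptide adrenomedullin. NDRG1 is a stress-induced cytoplasmic protein, BNIP3 a mitophagy receptor, PFKFB4 a regulator of glycolytic flux, and CA9 a membrane carbonic anhydrase that is a classical hypoxia marker. Several of these genes also respond to other stresses.

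Promoters are shown because hypoxia and glucose act on such genes through short DNA motifs, and the letters tell which members hold them close to their start. RefSeq promoter windows on GRCh38.p14, of 250 bases before to 50 after the start, were matched for 7 of 8 members looked for, and VEGFA had no entry. NDRG1 was not searched here. The cores of the hypoxia response element, ACGTG or GCGTG on either strand, were present in 6 of the 7 windows, and 48.4% of all 35116 windows held them. ACGTG alone was in 3 of 7 (21.4% of all windows) and GCGTG in 5 of 7 (36.5%). CACGTG, an E-box that contains ACGTG, was found in the BNIP3 window (7.26% of all windows). Only the TXNIP window of the 7 held 2 copies of CACGNG set 5 bases apart, the layout of a carbohydrate response element, as did 0.057% of all windows. The letters of neither core were in the SESN2 window. Below, capitals mark these motifs on either strand, and each stretch is read 5′ to 3′ on the strand of its gene. Each ends before the transcription start of its promoter window, from which positions are counted. In genome coordinates this start differed from that of the counted model by 93 bp (ADM), 66 (SESN2), -52 (TXNIP) and -90 (BNIP3). For DDIT4, PFKFB4 and CA9 it differed by 5 to 10 bp. DDIT4 is chr10:72273674-72273923 (plus strand), TXNIP chr1:145996625-145996684 (minus), ADM chr11:10304953-10304992 (plus), BNIP3 chr10:131982019-131982078 (minus), PFKFB4 chr3:48556949-48556988 (minus) and CA9 chr9:35673888-35673927 (plus).
DDIT4: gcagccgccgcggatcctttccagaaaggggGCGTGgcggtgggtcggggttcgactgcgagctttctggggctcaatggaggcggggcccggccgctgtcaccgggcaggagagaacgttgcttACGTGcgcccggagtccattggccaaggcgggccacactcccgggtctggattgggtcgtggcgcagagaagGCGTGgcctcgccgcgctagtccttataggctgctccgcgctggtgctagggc
TXNIP: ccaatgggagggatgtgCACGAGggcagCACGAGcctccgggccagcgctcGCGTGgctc
ADM: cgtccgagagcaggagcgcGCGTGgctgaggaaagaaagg
BNIP3: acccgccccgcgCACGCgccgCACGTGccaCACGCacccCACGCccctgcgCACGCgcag
PFKFB4: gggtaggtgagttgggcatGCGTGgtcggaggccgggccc
CA9: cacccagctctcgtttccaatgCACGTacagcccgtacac
The 250 bases of DDIT4 held 3 separate cores, GCGTG starting at -219 and -53 and ACGTG at -125, while the 60 bases of BNIP3 held 4 copies of GCGTG on the opposite strand around the palindromic CACGTG at -134. ADM had GCGTG at -101, PFKFB4 at -166, and CA9 had ACGTG on the opposite strand at -18. These are matches of letters and not measured sites of binding.

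Reads were counted over gene models with their introns, given here in hg38 coordinates. In 1443 models, PFKFB4 among them with 39050 of 39111 bp, the counted length was below the span. DDIT4 (NM_019058) was counted over chromosome 10, 72273919 to 72276039, and BNIP3 (NM_004052) over chromosome 10, 131967683 to 131982013. TXNIP (NM_006472) lay on chromosome 1, 145992442 to 145996631, and SESN2 (NM_031459) on chromosome 1, 28259452 to 28282491. VEGFA (NM_001171629) lay on chromosome 6, 43770209 to 43786486, and ADM (NM_001124) on chromosome 11, 10304980 to 10307402. PFKFB4 (NM_004567) lay on chromosome 3, 48517684 to 48556794, and CA9 (NM_001216) on chromosome 9, 35673918 to 35681157. No member overlapped another model of the tables. The shortest were DDIT4 with 2121 bp and ADM with 2423 bp, and the longest was NDRG1 with 60134 bp.

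Total counts were 10739622 to 62626875 in DLD-1, lower in both auxin libraries than in the controls, and 32129400 to 36491540 in HCT116. A background was set from the median reads per base over 3111 long genes that were silent in the other line. Extended to all gene models it amounted to 2.24% and 9.02% of reads in the DLD-1 controls, 39.5% and 59.6% after auxin, and 0.256% to 3.03% in HCT116. POLR2A RNA was 218 and 149 CPM (reads scaled to the library total) in DLD-1 controls and 194 and 138 CPM after auxin, which does not check depletion of the protein. TOP2B RNA was 188 and 186 CPM in HCT116 controls and 134 CPM in both TOP2B-/- libraries, so that its reads remained. Of 8 colon epithelial markers, 7 in DLD-1 and 6 in HCT116 were over 2 times the background in both controls. Fibroblast markers, 0 of 5 of them over 2 times the background in both DLD-1 controls, summed to 6.31 and 13.0 CPM there. After auxin they summed to 51.0 and 75.6 CPM, with single genes at 0.59 to 1.39 times the background. The 5 blood markers summed to 1.44 and 5.26 and then 20.5 and 31.7 CPM, at 0.316 to 4.24 times the background after auxin. Of the blood markers, CD14 and HBB were over 2 times the background in both DLD-1 controls, at most at 0.461 CPM, and both also in the HCT116 controls. Of the fibroblast markers COL1A1 was over it in HCT116 controls, at 42.8 and 45.3 CPM, and the fibroblast markers summed to 44.7 and 45.9 CPM there and 32.6 and 28.4 CPM in the TOP2B-/- group, with blood markers at 0.192 to 1.46 CPM. The part of background in the results was not tested beyond the values given beside them. In these bulk samples, fewer cells of a type and less RNA per cell cannot be told apart.

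DDIT4 was the most abundant of the 9 genes per length in the controls of both lines. Levels are given as RPKM, the reads of a library scaled to its total and to the counted length in kb, where counting spans exons and introns together. In DLD-1 controls the order of mean levels was DDIT4 at 30.4 ± 4.84, VEGFA at 8.22 ± 0.038, ADM at 3.43 ± 0.047 and NDRG1 at 0.80 ± 0.057 RPKM (SD, n = 2). TXNIP followed with 0.53 ± 0.010, PFKFB4 with 0.35 ± 0.030 and SESN2 with 0.30 ± 0.0052 RPKM (SD, n = 2). CA9 at 0.060 ± 0.069 and BNIP3 at 0.050 ± 0.053 RPKM (SD, n = 2) overlapped and were the only neighbours in this order that did. DDIT4 stood at percentile 99.5 of all gene models per length, VEGFA at 97.4 and ADM at 91.1, while BNIP3 stood at 18.8.

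In HCT116 controls the order was DDIT4 at 22.8 ± 3.90, ADM at 15.9 ± 2.0, VEGFA at 4.90 ± 0.54 and NDRG1 at 1.47 ± 0.023 RPKM (SD, n = 2). PFKFB4 had 1.18 ± 0.020, BNIP3 1.00 ± 0.084 and SESN2 0.24 ± 0.023 RPKM (SD, n = 2). CA9 at 0.016 ± 0.018 and TXNIP at 0.011 ± 0.015 RPKM (SD, n = 2) overlapped. The lines therefore held different sets of these genes. BNIP3 was near background in DLD-1 and far over it in HCT116, and TXNIP was the reverse. Line and sequencing run cannot be told apart, so no test was made between lines.

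**Figure D1:**
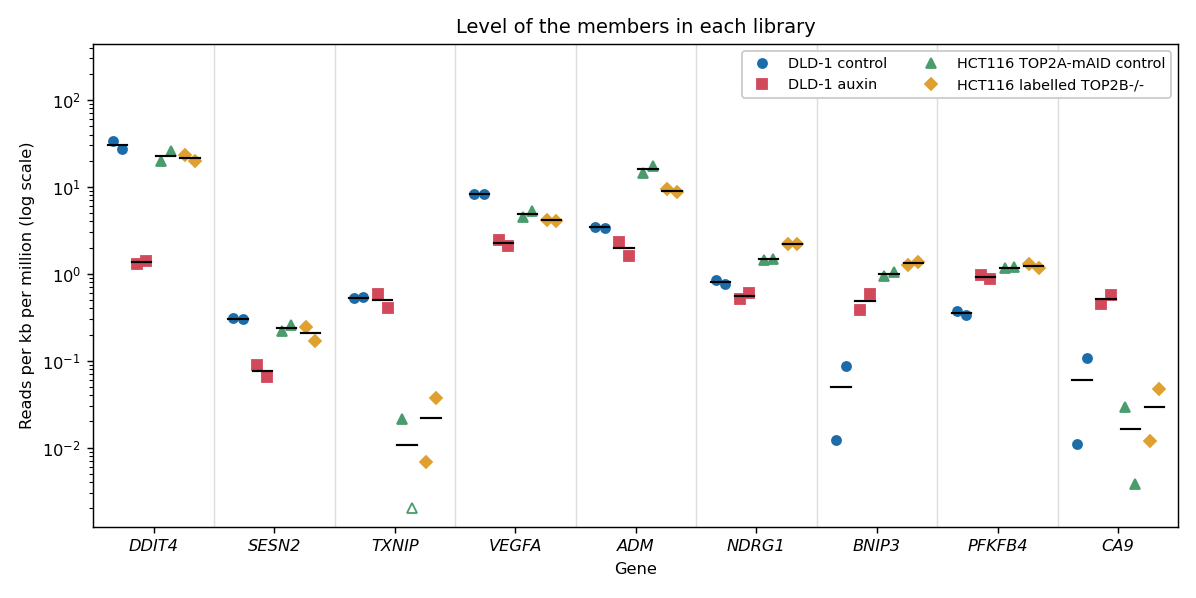
Levels of the 9 genes in each library, in RPKM on a log axis, with points for libraries, bars for group means and an open symbol for a library with 0 reads. DDIT4 lay between 19.8 and 33.8 in all libraries but the DLD-1 auxin pair, where it was 1.30 and 1.41.

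BNIP3 had 11 and 46 reads in DLD-1 controls and 78 and 90 after auxin, against 448 to 634 reads in the HCT116 libraries. Relative to the background expected over its length, this was 0.625 and 1.10 times in controls and 1.11 and 1.12 times after auxin in DLD-1. In HCT116 it was 60.4 and 474 times in controls and 115 and 51.9 times in the TOP2B-/- group. The background of the second HCT116 control was very low, so its ratios are large and imprecise. BNIP3 reads in DLD-1 thus lay at background in all 4 libraries. TXNIP had 137 and 83 reads in DLD-1 controls, or 26.6 and 6.80 times the background, and 35 and 18 reads after auxin, or 1.71 and 0.767 times. In HCT116, TXNIP had 3, 0, 1 and 5 reads, at 0 to 1.40 times the background. The library with 0 reads allows up to 3 reads, or 0.0822 CPM, as a one-sided limit for counting error only, and the two-sided 95% Poisson interval reaches 3.69 reads. CA9 was between 0.563 and 1.87 times the background in all 8 libraries, with at most 46 reads in any of them, and was not distinguishable from background in either line.

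**Figure D2:**
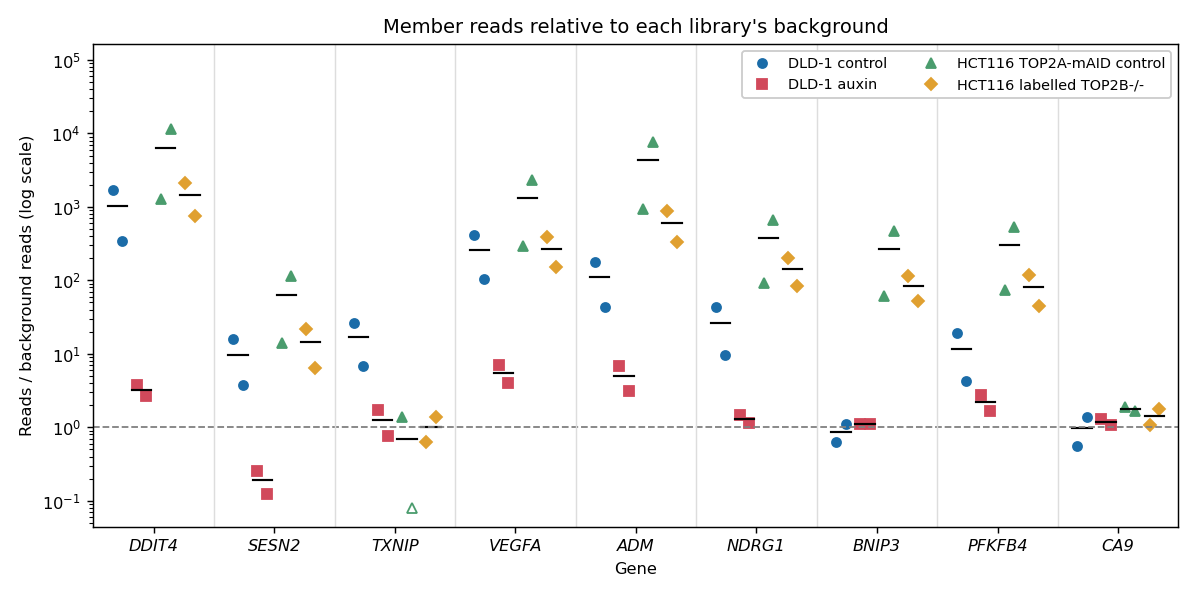
Reads of each gene divided by the reads expected from that library's background over the gene's counted length, on a log axis with a dashed line at 1, points for libraries and bars for group means, and an open symbol for 0 reads. BNIP3 and CA9 sat near the line in all DLD-1 libraries, SESN2 lay under it after auxin, and DDIT4 stayed over it in every library.

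In DLD-1 the comparison addresses how nascent RNA differs after auxin, which targets the tagged RNA polymerase II subunit for degradation. Loss of the protein was not measured in these libraries. DDIT4 had 4489 and 2110 reads in controls and 39 and 32 reads after auxin, which is 71.7 and 57.2 CPM against 2.75 and 2.98 CPM. Its log2 fold change was -5.13 (SE 0.26), the 4th lowest of 17625 genes tested, and this value is the one that chose the gene. The auxin reads had 95% Poisson intervals of 27.7 to 53.3 and 21.9 to 45.2 and were still 3.76 and 2.69 times the background, against 1720 and 342 times in controls. With background-subtracted counts the log2 fold change was -4.36 (SE 0.24) and its rank was 1165 from the lowest of 14351 genes. Over all genes the median log2 fold change was -0.06 with TMM scaling and 0.57 with library totals alone, and all fold changes in DLD-1 are to be read relative to that median.

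Of the 9 members, 5 were called lower and 1 higher in DLD-1 by edgeR, and 35.0% of all genes tested were called lower and 32.2% higher. Since the members were chosen from this contrast, nothing is read from these counts, nor from the calls of single members below. Such a call says only that a value passed the threshold. Groups did not overlap in TMM-scaled log2 CPM for 9 of 9 members, which was also the case for 91.2% of genes tested. With background-subtracted counts, 4 members were lower and 1 higher, beside 32.0% and 27.7% of all genes. Library totals alone gave 3 lower and 2 higher, beside 19.2% and 42.8% of all genes, and the same shares of all genes stand behind the counts of pathway genes on these scales.

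SESN2, which also regulates mTORC1, was lower after auxin. It had 445 and 256 reads in controls and 29 and 16 after auxin, or 7.11 and 6.94 CPM against 2.05 and 1.49 CPM, with a log2 fold change of -2.61 (SE 0.40). It went from 15.7 and 3.82 times the background to 0.257 and 0.124 times, so that its reads after auxin were fewer than the median silent gene of its length would give. Only 3.07% and 2.79% of 15616 gene models of at least 5000 bp had fewer reads per base in those libraries. Background subtraction left SESN2 with 0 reads in both auxin libraries, and no size is given for its fall on that scale. TXNIP, the glucose-responsive member, was not called, with 2.19 and 2.25 CPM in controls, 2.47 and 1.68 CPM after auxin and a log2 fold change of -0.72 (SE 0.46). Its background-subtracted value was -1.5 (SE 1.43).

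VEGFA had 133 and 134 CPM in DLD-1 controls and 39.7 and 33.8 CPM after auxin, and its log2 fold change of -2.50 (SE 0.19) became -1.49 (SE 0.095) with background-subtracted counts. VEGFA was 7.07 and 3.98 times the background after auxin. ADM had 8.40 and 8.24 CPM in controls and 5.64 and 3.91 CPM after auxin, with a log2 fold change of -1.43 (SE 0.36). That of ADM was -0.51 (SE 0.31) after background subtraction and -0.80 with library totals alone, and it was called on neither. Both secreted factors therefore lay lower after auxin in these libraries on all these scales.

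NDRG1 had 50.5 and 45.7 CPM in controls and 30.7 and 35.9 CPM after auxin, and its log2 fold change was -1.17 (SE 0.19). It was 1.48 and 1.14 times the background after auxin, and subtraction moved the value to -2.02 (SE 0.27), while library totals alone gave -0.53, which was not called. PFKFB4 was the only member called higher, with 14.7 and 13.0 CPM in controls and 37.6 and 33.7 CPM after auxin. Its log2 fold change of 0.72 (SE 0.23) was 1.36 with library totals alone and 1.29 (SE 0.25) with background-subtracted counts, called on each. After subtraction, however, its RPKM on library totals overlapped between groups, with 0.36 and 0.25 in controls and 0.62 and 0.34 after auxin. PFKFB4 was 19.2 and 4.23 times the background in controls and 2.79 and 1.65 times after auxin, and it was not called without control replicate 2 (0.60) or without auxin replicate 1 (0.70) or 2 (0.83). BNIP3 and CA9 had log2 fold changes of 2.70 (SE 0.95) and 2.52 (SE 1.05) and were not called by edgeR, while DESeq2 called both higher. With background-subtracted counts they were 4.57 (SE 1.79) and 2.92 (SE 1.88), not called. Leaving out control replicate 1 gave 1.86 for BNIP3 and 1.61 for CA9, and leaving out control replicate 2 gave 4.58 and 4.77, with both genes called by edgeR in each case. Their reads were at background in every DLD-1 library, and the background share in those libraries went from 2.24% and 9.02% to 39.5% and 59.6%. Its part in these values was not tested separately. Without auxin replicate 1 or without auxin replicate 2, only DDIT4 and VEGFA of the 9 members were called by edgeR, both lower, and of all genes tested 13.2% and 16.9% were called lower in those fits.

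**Figure D3:**
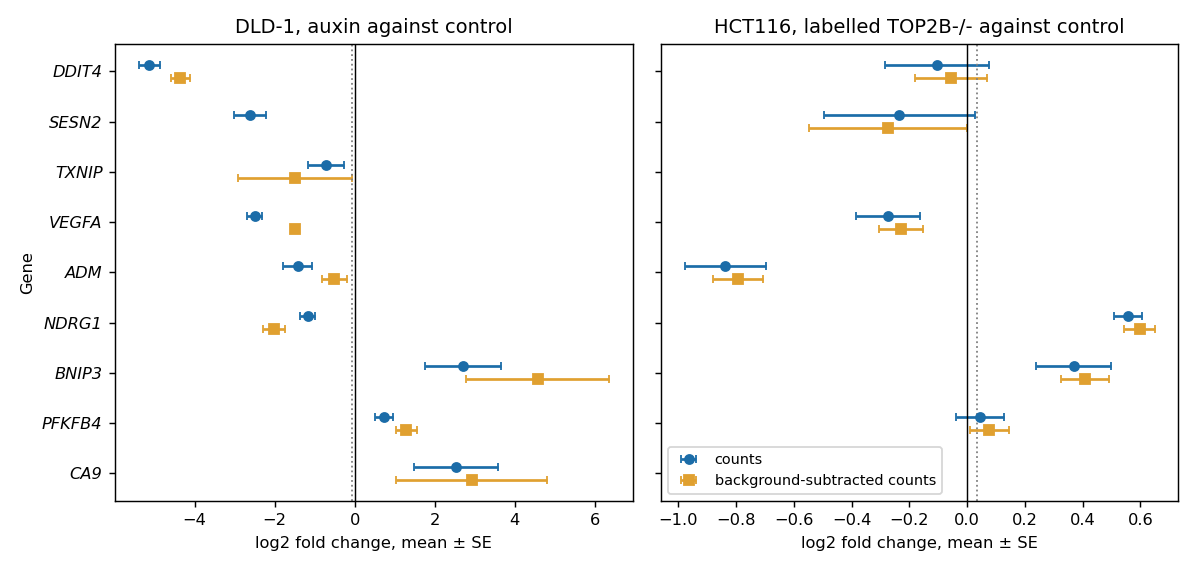
Log2 fold changes of the 9 genes (points, with bars of 1 SE) in DLD-1 on the left and HCT116 on the right, from counts in blue and background-subtracted counts in orange, with a dotted line at the median of all genes. DDIT4 had the lowest value in DLD-1 and lay near 0 in HCT116, where TXNIP and CA9 did not pass the filter on low counts. SESN2 has no orange point in DLD-1 because both auxin libraries were left with 0 reads.

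In HCT116, where the tagged protein is TOP2A, the comparison asks what differs in the TOP2B-/- cells, and DDIT4 showed no called change. It had 42.4 and 54.1 CPM in controls and 49.5 and 42.0 CPM in the TOP2B-/- group, so that the groups overlapped. Its log2 fold change was -0.10 (SE 0.18, edgeR adjusted p = 0.740), and its sign turned when single libraries were left out. TXNIP and CA9 did not pass the count filter, leaving 7 members tested. Of these, edgeR called 1, in the higher direction (3 of the 7 had an unadjusted p under 0.05), while 1.75% of all genes tested were called higher and 1.66% lower. Groups did not overlap for 4 of the 7 (NDRG1, VEGFA, ADM and BNIP3) and for 54.0% of all genes tested. The members were chosen with results of these libraries known, and the p-values are not independent evidence.

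NDRG1 was the member called, with 87.4 and 89.3 CPM in HCT116 controls and 132 and 133 CPM in the TOP2B-/- group. It rose by 0.56 (SE 0.050, edgeR adjusted p = 0.030). Without TOP2B-/- replicate 1 or 2 the adjusted p was 0.210 or 0.285 in edgeR, and in those fits edgeR called 0 of all genes, with 2266 and 1286 genes at an unadjusted p under 0.05. DESeq2 gave 0.54 with an adjusted p of 7.87e-10, and the fit over all 8 libraries gave the highest, an edgeR adjusted p of 0.588. ADM had 35.2 and 42.0 CPM in controls and 22.9 and 21.1 CPM in the TOP2B-/- group. Its log2 fold change of -0.84 (SE 0.14) missed the threshold in edgeR (adjusted p = 0.069) and passed it in DESeq2 (adjusted p = 1.06e-04). ADM also passed in edgeR with background-subtracted counts (adjusted p = 0.0076), library totals alone (0.047) and a mean CPM of at least 5 (0.028), and over all alternatives the adjusted p reached 0.482. DESeq2 called 5.88% of all genes lower and 4.38% higher, and among the members it called ADM lower and NDRG1 higher. For both genes the groups lay apart, with NDRG1 higher and ADM lower in each TOP2B-/- library than in each control. Colon epithelial markers moved with the same groups, with a summed level of 4023 and 4886 CPM in controls and 3280 and 2961 CPM in the TOP2B-/- group. Their median log2 fold change was -0.47 over the 7 tested, of which edgeR called CDH1 (-0.69) and DESeq2 called 5, all lower. Their part in the HCT116 results was not tested.

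VEGFA had 73.5 and 85.9 CPM in HCT116 controls and 68.2 and 66.1 CPM in the TOP2B-/- group (log2 fold change -0.27, SE 0.11, edgeR adjusted p = 0.258). BNIP3 had 13.5 and 15.2 CPM against 17.96 and 19.7 CPM (0.37, SE 0.13, edgeR adjusted p = 0.210), and it was called with background-subtracted counts (0.41, edgeR adjusted p = 0.0325) and under no other alternative (adjusted p up to 0.923). PFKFB4 had 45.4 and 46.5 CPM against 50.5 and 45.8 CPM (0.05, SE 0.083, edgeR adjusted p = 0.754). SESN2 had 5.11 and 5.86 CPM against 5.56 and 3.92 CPM (-0.23, SE 0.26, edgeR adjusted p = 0.642). For PFKFB4 and SESN2 the groups overlapped. For BNIP3 and VEGFA they lay apart without passing the edgeR test on counts of all 4 libraries. With single libraries left out, the log2 fold change of VEGFA was -0.41 to -0.19.

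The genes with the pattern most like that of DDIT4 were looked for among 15204 genes tested in both lines, by Euclidean distance over the 8 libraries in TMM-scaled log2 CPM centred within each line. The nearest were RNF43, a ubiquitin ligase that lowers Wnt receptors (distance 0.604), the histone genes HIST1H3B (0.613) and HIST1H2BJ (0.652), AXIN2, a feedback inhibitor of Wnt signalling (0.774), and the trypsinogen PRSS3 (0.85). None of these is a hypoxia or nutrient stress gene of the lists used here. RNF43 went from 1311 and 1247 CPM in DLD-1 controls to 58.7 and 45.6 CPM after auxin and was 119 to 140 CPM in HCT116. AXIN2 went from 560 and 496 to 36.6 and 31.0 CPM. The histone genes and PRSS3 have near-identical relatives, and their counts are uncertain. Of the other members tested in both lines, SESN2 (2.55) and VEGFA (2.61) were nearest to DDIT4, followed by ADM (3.74), NDRG1 (3.98), PFKFB4 (5.81) and BNIP3 (8.35). The fall in DLD-1 for which DDIT4 was chosen enters this distance, and no test was made.

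**Figure D4:**
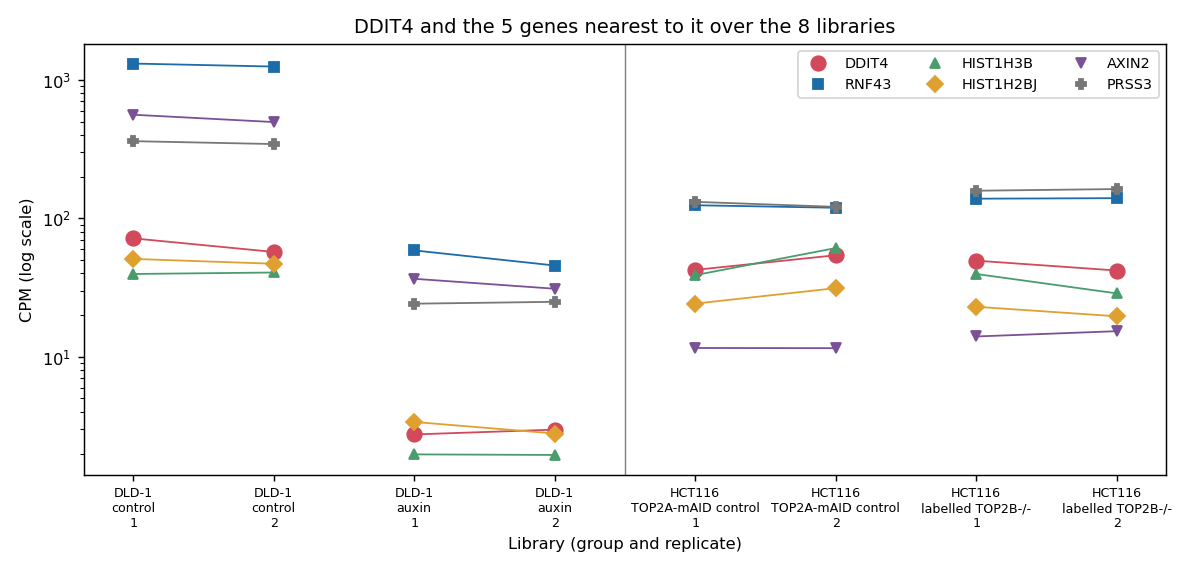
CPM of DDIT4 and of the 5 genes nearest to it in each of the 8 libraries, on a log axis, with lines that join the replicates of a group. All 6 genes were lower in both DLD-1 auxin libraries than in the controls, and DDIT4 kept 42.0 to 54.1 CPM in HCT116.

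The wider pathway was read from lists of related genes, where a gene may be on more than 1 list. Of 12 HIF pathway components tested in DLD-1, 2 were higher and 9 lower after auxin, with a median log2 fold change of -1.04 beside -0.06 for all genes. CREBBP, a coactivator of HIF, fell by 2.44 on the log2 scale and was 1.49 and 1.13 times the background after auxin. CITED2, which competes with HIF for that coactivator, fell by 2.14 (24.1 and 12.9 times the background). The prolyl hydroxylase gene EGLN3 rose by 0.94 (2.82 and 1.51 times). HIF3A was also called higher (2.50) at 1.00 and 1.28 times the background after auxin. With library totals alone, 2 of the 12 were higher and 4 lower, and with background-subtracted counts 1 and 6, with a median of -0.31 beside -0.16 for all genes.

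Glycolytic hypoxia targets were split between both directions with TMM scaling of counts, and more of them were higher than lower on the other scales. In DLD-1, 4 of 20 were higher and 5 lower, with a median of 0.42, and background-subtracted counts gave 13 higher and 3 lower (median 1.38) and library totals alone 11 and 3, where 42.8% of all genes were higher and 19.2% lower. ENO2, a neuronal-type enolase, rose by 1.53 and the aldolase gene ALDOA by 0.90, and both were also higher with background-subtracted counts (2.46 and 2.20). The lactate exporter gene SLC16A3 fell by 2.51 and the glucose transporter gene SLC2A1 fell by 2.49, and both were lower on all 3 scales. After auxin SLC16A3 was 1.44 and 1.13 times the background and SLC2A1 7.27 and 3.66 times. PFKFB4 had the direction of ENO2 and ALDOA, which were named for their rises, while its relative PFKFB3 was not called (-0.43). Of 23 other hypoxia targets, 6 were higher and 9 lower (median -0.45), and library totals alone gave 10 and 4. BHLHE40, a repressor of transcription, fell by 2.38 and ANGPTL4, an inhibitor of lipoprotein lipase, fell by 2.07. After auxin BHLHE40 was 1.77 and 1.24 times the background and ANGPTL4 1.08 and 0.819 times. The called rises of STC2 (2.997) and LOX (2.93) were at 0.816 to 0.954 times the background after auxin.

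DDIT4 and SESN2 belong to the pathway of amino acid and energy sensing to mTORC1. Of its 41 genes tested in DLD-1, 28 were lower and 7 higher (median -1.08), while 14 were lower and 7 higher with library totals alone, and 14 of 40 lower and 5 higher with background-subtracted counts (median -0.81). All genes were called lower in 35.0%, 19.2% and 32.0% and higher in 32.2%, 42.8% and 27.7% on the same 3 scales. The GATOR1 gene NPRL3 fell by 2.55 and the GATOR2 gene WDR24 fell by 2.19. After auxin NPRL3 was 1.08 and 0.742 times the background and WDR24 1.87 and 1.23 times. The DDIT4 relative DDIT4L was called higher (3.82), from 0.064 and 0.22 CPM to 2.05 and 3.91 CPM, and was 1.28 and 1.62 times the background after auxin. PRKAA2, an AMPK catalytic subunit gene, was called higher (2.59) at 0.849 and 0.915 times the background. Of 10 genes around TXNIP, 4 were lower and 1 higher in DLD-1 (median -0.58), and library totals alone gave 2 and 4. MLX, the partner of the glucose sensors MLXIP and MLXIPL, fell by 2.10 and the thioredoxin reductase gene TXNRD1 fell by 1.48, and the arrestin ARRDC3, a relative of TXNIP, rose by 0.66. Of 29 relatives, receptors and partner ligands of the members, 15 were higher and 5 lower (median 0.66). With background-subtracted counts 10 and 6 of 22 were, and the median was -0.07 beside -0.16 for all genes. The ligand genes ADM2 and VEGFB fell by 2.22 and 1.71, with VEGFB not called with library totals alone. After auxin ADM2 was 1.13 and 0.951 times the background and VEGFB 1 and 0.61 times. RAMP2, a coreceptor of the adrenomedullin receptor, was called higher (3.49) at 2.32 and 0.869 times the background.

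In HCT116 few genes of these lists were called, and the medians lay between -0.08 and 0.19 beside 0.03 for all genes. Of all genes tested, edgeR called 1.75% higher and 1.66% lower. With the replicate number as a block it called 0 genes, and in the fit over all 8 libraries 5 of 17800. HIF1A itself rose by 0.44 (SE 0.053, edgeR adjusted p = 0.042), from 502 and 521 CPM to 705 and 711 CPM, the only 1 of 12 HIF components called by edgeR on counts. DESeq2 called 3 of them higher and 1 lower, beside 4.38% and 5.88% of all genes. With background-subtracted counts edgeR called 4 and 1, beside 1163 higher and 1144 lower of 13586 genes. HK2, the hexokinase gene, rose by 0.47 (edgeR adjusted p = 0.032) as 1 of 20 glycolytic targets. Among 22 other targets, 4 were called, all higher (8 higher and 2 lower by DESeq2), among them the carbonic anhydrase gene CA12 with 1.98 (edgeR adjusted p = 0.032, from 2.53 and 1.95 CPM to 8.81 and 9.09 CPM) and the glycogen branching enzyme gene GBE1 with 0.39. CA12 was thus called where its relative CA9 was at background. Of 41 mTORC1 sensing genes 1 was higher and 2 lower, all of them AMPK subunit genes, PRKAA2 with 0.37, PRKAB2 with -0.46 and PRKAG2 with -0.33. None of the 10 genes around TXNIP was called by edgeR (3 at an unadjusted p under 0.05), with DESeq2 calling 1 higher and 1 lower. Among 28 relatives and receptors, the VEGF coreceptor gene NRP1 rose by 0.96 (edgeR adjusted p = 0.025), CA12 was the other gene higher, and NDRG3, a relative of NDRG1, fell by 0.60 (edgeR adjusted p = 0.030).

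**Figure D5:**
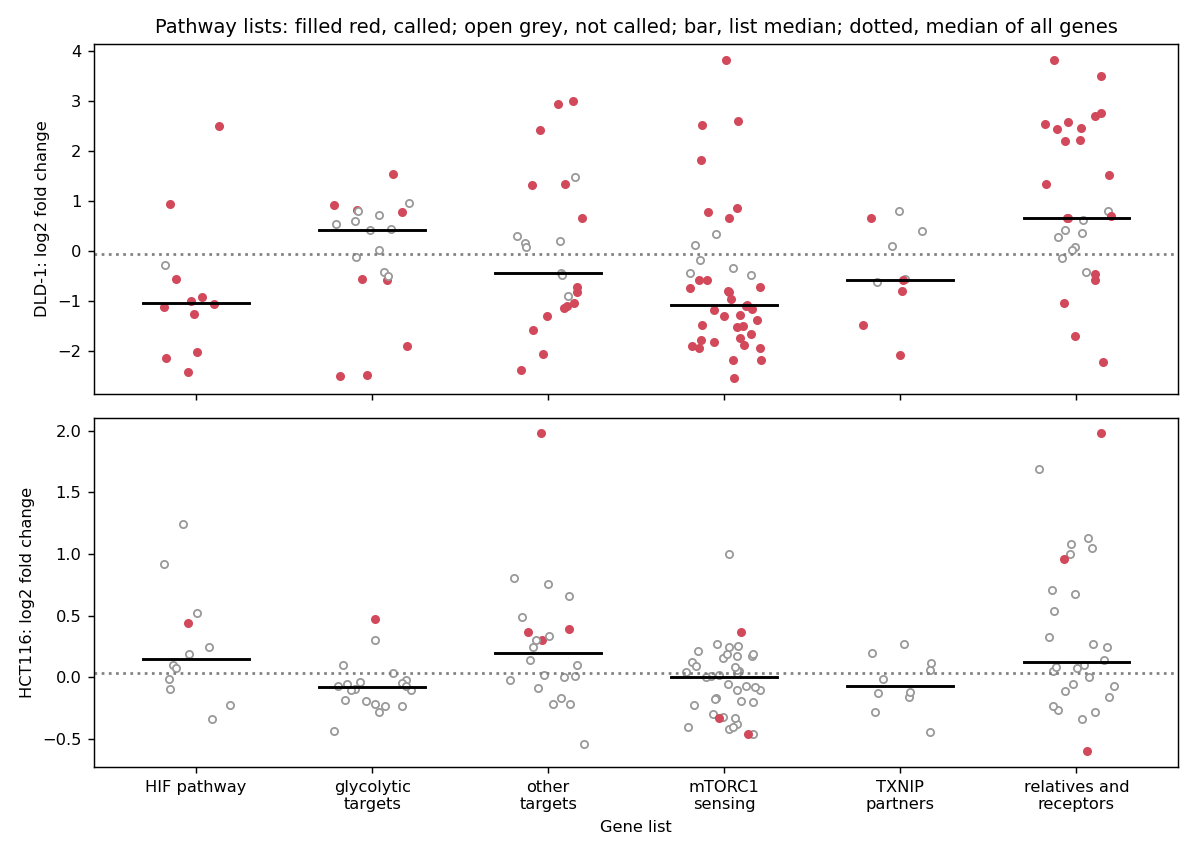
Log2 fold changes of the genes of 6 pathway lists in DLD-1 (top) and HCT116 (bottom), with filled red points for genes called by edgeR, open grey points for the others, black bars for list medians and a dotted line for the median of all genes. In DLD-1 the medians of the HIF pathway (-1.04) and mTORC1 sensing (-1.08) lists lay under the line. That of the relatives and receptors (0.66) lay over it. With background-subtracted counts these were -0.31, -0.81 and -0.07 (the last over 22 genes), beside -0.16 for all genes. In HCT116 all 6 medians lay between -0.08 and 0.19.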

How the data were processed

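Members and lists were chosen with earlier results of these data known. The accompanying paper concerns a different experiment and gave neither design nor values. Raw read counts were deposited by the authors per RefSeq gene model, with 1 table per line, counted over gene models with introns included (in 1443 models the counted length was below the span). The submitters' processing notes name STAR, DESeq2 and hg38, and versions and strand use were not given in the sources used here. Tables of the authors' own comparisons (log2 fold changes, p-values and a normalized signal) were not used. All columns were mapped to a library or group.

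Each line's 4 libraries were fitted in edgeR 4.0.16 (limma 3.58.1, R 4.3.3) by its quasi-likelihood test after filterByExpr and TMM, with 2 residual degrees of freedom, two-sided p-values and Benjamini-Hochberg adjustment over all genes at 0.05, called below. Standard errors came from the F statistic. CPM and RPKM use library totals. Silent genes were the lowest 20% of models of at least 5000 bp, by reads per kb in the controls of the other line within each chromosome, without chromosome Y. Background-subtracted counts were floored at 0 and rounded. Scripts were tested on simulated data. Named genes were the members, up to 2 called rises and 2 called falls with the largest size per list and line, and the 5 genes nearest to DDIT4. No member overlapped another gene model of the tables. Poisson intervals at 95% cover counting error only. Alternatives were DESeq2 1.42.0, other scalings and filters, leaving out each library, the replicate number as a block, a fit over all 8 libraries, background subtraction and other shares of silent genes (10% and 30%). Motifs were searched with Python 3.11.15. Groups came from the labels, and the TOP2B-/- group was set by genotype.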

Additional observations from a re-analysis of the deposited data

How the results depend on the processing

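In DLD-1, 6 members were called, and the count was 5 to 8 under the alternative tests, scalings, filters, fits and background subtraction. Leaving out 1 library gave 2 to 8, and the count was 2 without auxin replicate 1 and 2 without auxin replicate 2, fits in which 2393 of 17546 and 3165 of 17485 genes were called against 11855 of 17625. No member changed sign in DLD-1 under any alternative run. In HCT116, 1 member was called, beside 521 of 15273 genes tested. DESeq2 called 2 members, beside 1851 of 18041 genes. Library totals alone gave 2, beside 734 of 15273, and a mean CPM of at least 5 gave 2, beside 1221 of 11174. Background-subtracted counts gave 3, beside 2307 of 13586. A fit over all 8 libraries gave 0 (2 at an unadjusted p under 0.05 in edgeR), beside 5 of 17800. With single libraries left out, the log2 fold change of NDRG1 lay between 0.50 and 0.57. Sign changes in HCT116 came only with libraries left out, for DDIT4 (-0.30 to 0.047), PFKFB4 (-0.087 to 0.13) and SESN2 (-0.57 to 0.0088), and the cause was not tested. The replicate number as a block gave 8 members and 12963 genes called in DLD-1, and 0 members and 0 genes in HCT116, where edgeR had 2177 genes and 2 members at an unadjusted p under 0.05 and DESeq2 without the block called 1851 genes. Deviations of libraries with the same number correlated at 0.562 in DLD-1 and -0.821 in HCT116, and with 2 numbers the labels give no pairing. Crossed numbers in HCT116, chosen after seeing the data, gave 2 members and 1808 genes called. Other shares of silent genes moved 4 values of reads over background by more than 1 SD. Control levels were recomputed with the span in place of the counted length and with background subtraction, and 5 moved by more than 1 SD, with 0 reversed. In HCT116, TXNIP and CA9 had at most 11 reads and lay at 0 to 1.87 times the background. Background limits BNIP3, CA9, SESN2, TXNIP, NDRG1 and PFKFB4 in DLD-1 after auxin. It also enters DDIT4, at 3.76 and 2.69 times the background there, ADM (6.75 and 3.09) and VEGFA (7.07 and 3.98). With background-subtracted counts the log2 fold changes of DDIT4, ADM and VEGFA were -4.36, -0.51 and -1.49.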
